A study of Homo sapiens with 16 samples.

Results

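In MCF10A cells 10 NRF2 target genes were followed: the aldo-keto reductases AKR1C1, AKR1C2, AKR1C3 and AKR1B10, and NQO1, HMOX1, GCLM, TXNRD1, SRXN1 and SLC7A11. They were the entries of the raw count table that carry these symbols, 10 of 26475 genes, and each was found once. The list was picked on values of these libraries, because AKR1C1 had separated the 2 inhibitors of the study. The difference between the inhibitors is therefore given as a description with no test for all 10 genes, and AKR1C1 itself is described without a test wherever an inhibitor is compared.

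NRF2 (gene NFE2L2) is a transcription factor that KEAP1 and CUL3 mark for degradation until electrophiles or oxidants modify KEAP1. NRF2 then accumulates, pairs with a small MAF protein and binds antioxidant response elements near genes of glutathione synthesis, thioredoxin reduction, quinone and carbonyl reduction, NADPH supply and iron handling. The repressor BACH1 competes for the same elements, and HMOX1 is its best known target. The AKR1C enzymes reduce ketosteroids, prostaglandins and lipid aldehydes with NADPH, so that in breast epithelium they also act on progesterone and on androgen and oestrogen precursors.

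MCF10A is a line of human mammary epithelial cells that became immortal in culture without forming tumours. Its transcripts had been sequenced in 16 libraries in 4 groups of 4. The control received DMSO and no collagen, and the collagen group received Collagen 1 with DMSO. The DDR1i group received Collagen 1 and 2 μM DDR1-IN-1, an inhibitor of the collagen receptor kinase DDR1, and the RUNXi group received Collagen 1 and 5 μM AI-10-104, which keeps RUNX factors from their partner CBFβ. Cells had an inhibitor for 48 h and collagen, at 0.05 mg/mL, for the last 24 h. All cells were of 1 line, and the labels do not say whether libraries of a group came from separate cultures, so that p-values measure only the spread between these libraries, which may be technical. A DDR1i library without collagen or a RUNXi library without collagen was not analysed here.

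Total counts ranged from 12184619 to 44332378 per library, the lowest and the highest both in the control. Collagen replicate 3, which the study removed as an outlier, was left out of the fits and is given beside the values. Levels are given as CPM, the counts of a gene per 1000000 counts of its library after scaling. Of 7 basal epithelial markers all were detected, and their summed level was 10491 to 13708 CPM with DDR1i, 14981 to 20230 with collagen (collagen replicate 3 included), 14823 to 18599 in the control and 17153 to 19574 with RUNXi. Keratins make up most of this sum, with KRT5 alone at 8930 to 11589 CPM in the 3 collagen libraries of the fit. Every DDR1i library was below every library of the collagen group in the fit and every RUNXi library for 3 of the 7, KRT5, KRT14 and KRT17, of which KRT14 passed against collagen (-0.90 ± 0.13, edgeR adjusted p = 0.0012). TP63 had -0.02 ± 0.16 with DDR1i (adjusted p = 0.97), and CDH1, which the study stained as an epithelial marker, 0.31 ± 0.15 (adjusted p = 0.30). ITGA6 rose with DDR1i (0.44 ± 0.12, adjusted p = 0.047), at 716 to 909 CPM against 593 to 630 CPM in the 3 collagen libraries, and EGFR was at 115 to 241 against 47.6 to 102 CPM (adjusted p = 0.081). Collagen replicate 3, at 767 CPM for ITGA6 and 230 for EGFR, lay within both DDR1i ranges. With RUNXi against collagen ITGA6 had 0.59 ± 0.12 (edgeR adjusted p = 0.011) and EGFR 1.00 ± 0.30 (adjusted p = 0.083). In the control ITGA6 was at 589 to 1085 CPM and EGFR at 146 to 257 CPM. The part of these marker differences in the results was not tested. Of 7 luminal markers PGR was at 0 in all libraries (summed level of the list 473 to 746 CPM), of 7 fibroblast markers COL3A1 (5.42 to 32.9 CPM), and of 3 endothelial markers CDH5 (0 to 2.40 CPM). The 4 immune markers summed to 9.39 to 43.9 CPM. DDR1 and RUNX1 transcripts were present in every library, at 108 to 163 CPM and 36.7 to 69.4 CPM. The inhibitors act on proteins, so that these levels do not check the labels.

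Reads of the AKR1C genes can be confused with each other, and the coding sequences are shown for this reason. The genes lie in a cluster on chromosome 10 (GRCh37): AKR1C1 at chr10:5005445-5025475 on the plus strand, AKR1C2 at chr10:5029967-5060223 on the minus strand and AKR1C3 at chr10:5077546-5149878 on the plus strand. The other genes lie apart, AKR1B10 at chr7:134212319-134226164, NQO1 at chr16:69740899-69760571, HMOX1 at chr22:35776354-35790207, GCLM at chr1:94350755-94375012, TXNRD1 at chr12:104609557-104744085, SRXN1 at chr20:627259-633844 and SLC7A11 at chr4:139085251-139163503. The coding sequences of AKR1C1 and AKR1C2 were identical at 953 of 972 bases (98.0%), those of AKR1C1 and AKR1C3 at 91.5% and those of AKR1C1 and AKR1B10 at 56.2%. Of all 50-base windows of the AKR1C1 coding sequence 51.8% also occurred in AKR1C2, and of 150-base windows, the length of the reads, 5.0%. Coding bases 13 to 162, the window of this length that holds the most differences between AKR1C1 and AKR1C2, are printed from the start codon side, across a splice junction, with capitals where the 3 genes are not all the same. AKR1C2 differed from AKR1C1 at 11 and AKR1C3 at 18 of these bases.
AKR1C1: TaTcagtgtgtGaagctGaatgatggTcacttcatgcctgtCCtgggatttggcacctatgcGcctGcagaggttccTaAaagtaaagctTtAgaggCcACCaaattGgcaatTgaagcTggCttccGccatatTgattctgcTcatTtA
AKR1C2: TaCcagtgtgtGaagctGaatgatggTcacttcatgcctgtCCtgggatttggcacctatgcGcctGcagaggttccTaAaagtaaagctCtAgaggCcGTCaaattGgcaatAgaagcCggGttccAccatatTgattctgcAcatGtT
AKR1C3: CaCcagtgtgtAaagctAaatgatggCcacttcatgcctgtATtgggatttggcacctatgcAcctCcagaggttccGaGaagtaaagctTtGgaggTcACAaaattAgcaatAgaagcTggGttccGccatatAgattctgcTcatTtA

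The bases just before the transcription start were searched for the core of the antioxidant response element (TGACNNNGC) and for the RUNX letters TGTGGT, on both strands, in the RefSeq promoter table (GRCh38.p14, 250 bases upstream). This build differs from that of the counts, and its positions are not those of the gene spans above. Entries were matched for 7 of the 10 genes, AKR1C1, AKR1C2, AKR1C3, NQO1, GCLM, TXNRD1 and SRXN1. AKR1C3 and TXNRD1 had 2 entries each, and a gene was counted if either held the letters, whereas the shares of all promoters count single entries. The core was found in 2 of the 7, GCLM and TXNRD1, against 10.91% of 35116 promoters. The RUNX letters were found in 3 of the 7, AKR1C1, AKR1C2 and TXNRD1 (in its entry that is not shown), against 10.98% of promoters. AKR1C1 and AKR1C2 hold them in the same sequence, so that they do not count apart. The AP-1 letters TGAGTCA, which can overlap the core, were found in 0 of the 7 and in 4.2% of promoters. Of the other NRF2 pathway genes examined below 40 had an entry. The core was found in 13 of them, the RUNX letters in 3 and the AP-1 letters in 5. AKR1C1 and AKR1C2, which moved together below, were identical at 245 of 245 aligned upstream bases, and 1 of the pair is shown, with the RUNX letters (here on the other strand) in capitals at position -186. In GCLM and TXNRD1 capitals mark the core, at positions -34 and -99. A match is a run of letters, not a measured site, and elements farther away were outside the window.
AKR1C1, chr10:4963165-4963414, plus strand: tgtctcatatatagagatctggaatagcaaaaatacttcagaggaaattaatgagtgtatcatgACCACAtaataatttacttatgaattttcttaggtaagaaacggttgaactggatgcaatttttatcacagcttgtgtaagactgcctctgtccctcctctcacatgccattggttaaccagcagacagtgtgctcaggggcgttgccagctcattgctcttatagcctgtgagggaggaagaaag
GCLM, chr1:93909431-93909680, minus strand: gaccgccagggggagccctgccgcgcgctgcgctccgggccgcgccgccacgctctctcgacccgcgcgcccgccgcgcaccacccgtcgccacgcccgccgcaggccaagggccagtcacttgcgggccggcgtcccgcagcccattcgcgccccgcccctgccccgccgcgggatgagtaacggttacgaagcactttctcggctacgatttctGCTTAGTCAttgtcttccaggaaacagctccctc
TXNRD1, chr12:104215529-104215778, plus strand: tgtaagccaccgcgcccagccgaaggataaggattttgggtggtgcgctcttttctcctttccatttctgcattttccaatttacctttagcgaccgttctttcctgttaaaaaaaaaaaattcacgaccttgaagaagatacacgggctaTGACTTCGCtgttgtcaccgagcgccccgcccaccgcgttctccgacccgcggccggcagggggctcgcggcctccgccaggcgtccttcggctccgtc

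Collagen alone changed none of the 10 genes detectably. AKR1C1, which clears progesterone and other ketosteroids, was at 34.3, 44.7, 23.3 and 39.1 CPM in the 4 control libraries and at 34.0, 35.4 and 47.3 CPM in the 3 collagen libraries. These ranges overlap, and collagen replicate 3 was at 28.9 CPM. By the quasi-likelihood test of edgeR (Benjamini-Hochberg adjustment) 0 of the 10 genes passed 0.05, and 0 of 13092 genes tested did (0%). At an unadjusted p under 0.05, 0 of the 10 and 1754 of all genes passed (13.4%), and DESeq2 called 0 of the 10 and 414 of the 18032 genes it fitted (2.3%). DESeq2 gave no adjusted p to 2 of the 10, HMOX1 and AKR1B10, which could not be called. The median log2 fold change of the 10 was 0.11, beside 0.01 over all genes tested. AKR1C3 (0.30 ± 0.17, SE) and HMOX1 (0.91 ± 0.96) were higher in 3 of 3 collagen libraries than in any control, with adjusted p-values of 0.49 and 0.77. Collagen replicate 3, at 37.7 CPM for AKR1C3, lay within the control range. How many of all genes were separated in this way was not counted.

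With RUNXi 1 of the 3 aldo-keto reductases tested passed, AKR1C3, and all 4 had every RUNXi library above the 3 collagen libraries. The share of all genes with such a separation was not counted, so that it is not shown to be particular to these genes. At an unadjusted p under 0.05, 21.1% of all genes tested passed with RUNXi against collagen in edgeR. AKR1C1 was at 133, 83.6, 156 and 103 CPM, which was 3.04-fold the collagen level (log2 1.60 ± 0.20) and 3.37-fold the control level (1.75 ± 0.20), with no overlap with either. AKR1C2, whose product reduces the androgen dihydrotestosterone, was at 258, 217, 457 and 147 CPM, against 102, 114 and 97.9 CPM with collagen. All 4 RUNXi libraries were above all control and collagen libraries, but they differed among themselves by more than those of any other group. The log2 fold change of AKR1C2 of 1.36 ± 0.34 against collagen had an adjusted p of 0.053 in edgeR, and that of 1.41 ± 0.28 against control 0.057. DESeq2 gave adjusted p-values of 0.0076 and 0.0028 for the same differences. RNA of a whole culture was measured, so that more cells with a transcript and more of it per cell cannot be told apart.

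AKR1C3, which makes testosterone and prostaglandin F from their ketone precursors, rose with RUNXi. It was at 86.4, 67.4, 98.3 and 56.1 CPM, against 49.0, 50.9 and 43.9 CPM with collagen and 42.0, 43.7, 35.5 and 35.5 CPM in the control. The lowest RUNXi library was above the highest of the other groups, and the change was 1.60-fold against collagen (0.68 ± 0.18, edgeR adjusted p = 0.032) and 1.97-fold against control (0.98 ± 0.17, adjusted p = 0.0078). AKR1B10, a retinal and aldehyde reductase, was hardly detected, at 3.28, 3.18, 9.23 and 2.29 CPM with RUNXi and 1.35, 1.55 and 1.80 CPM with collagen. Its log2 fold change of 1.50 ± 0.84 had an adjusted p of 0.31. It had 0 counts in control replicate 2 and DDR1i replicate 3, which allow up to 0.240 and 0.133 CPM (3 counts per library, counting error only).

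**Figure D1:**
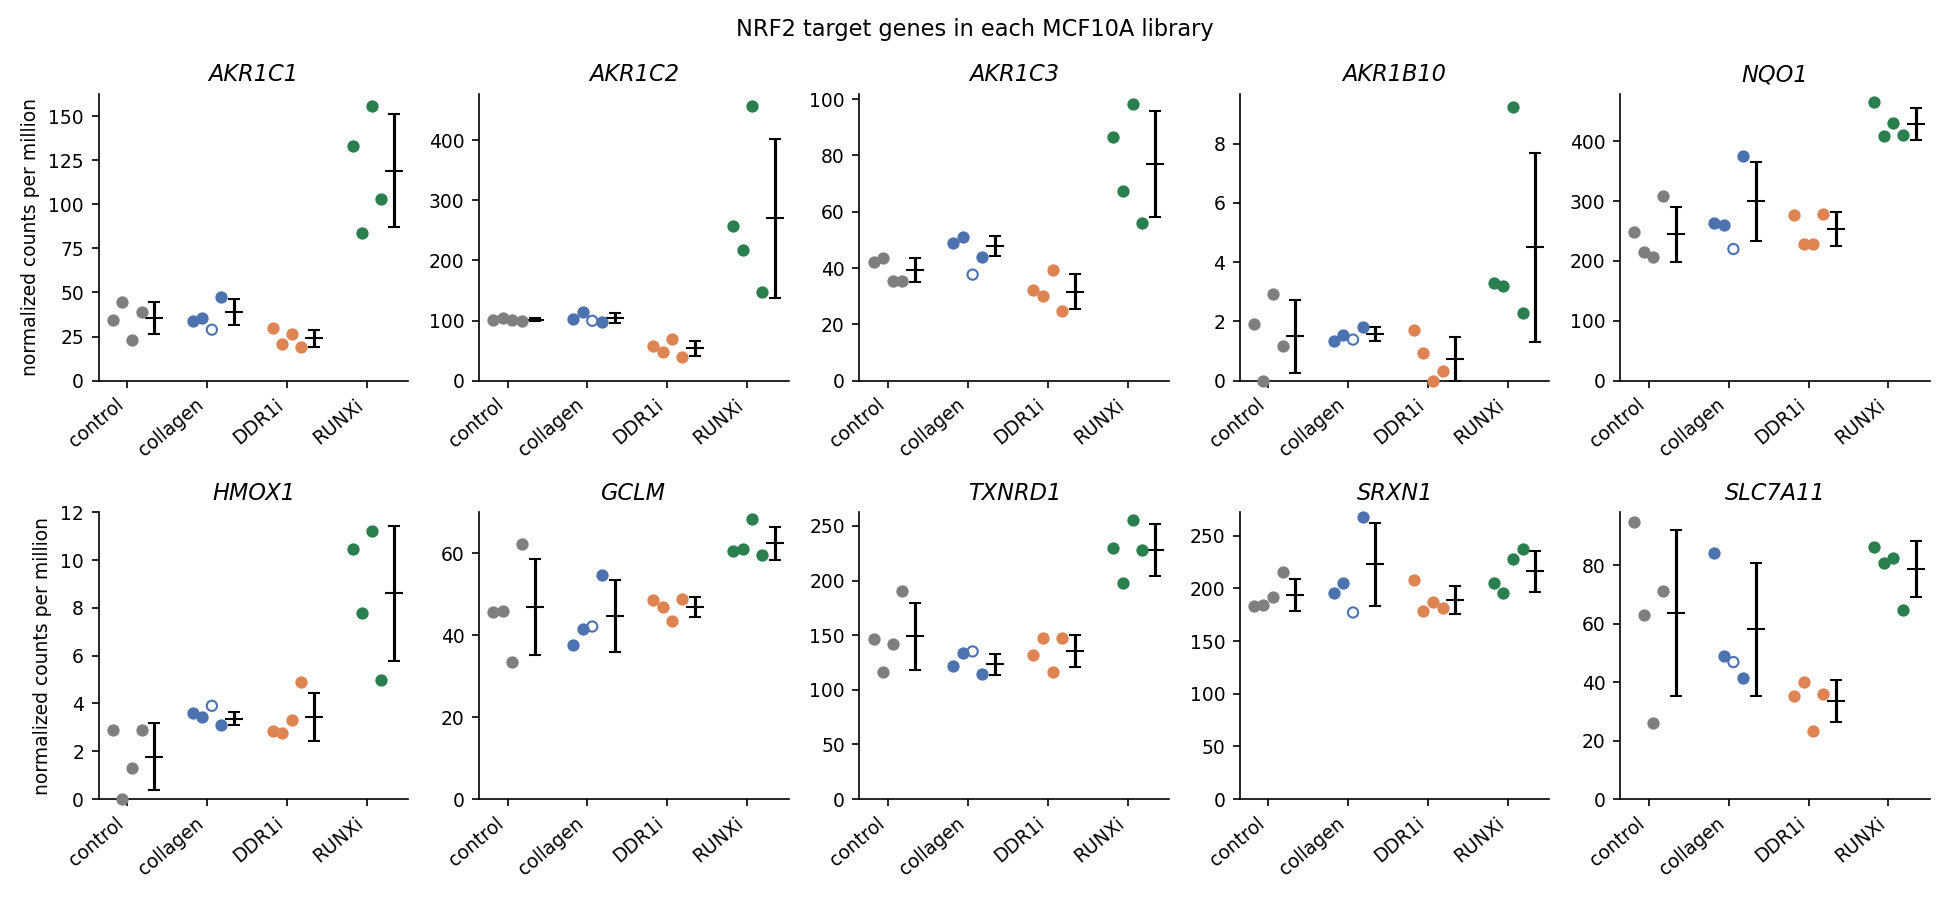
Normalized CPM (vertical axes from 0, a scale for each gene) of the 10 genes in the 4 groups of MCF10A libraries. Points are libraries, the open point is collagen replicate 3, and black bars are the mean ± SD of the other libraries (n = 4, n = 3 for collagen). RUNXi libraries lie above all DDR1i libraries for every gene but SRXN1.

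Among the detoxifying and redox enzymes TXNRD1, NQO1 and HMOX1 rose with RUNXi. Against collagen only the call of TXNRD1 held whichever single library was left out. TXNRD1, the reductase that keeps cytosolic thioredoxin reduced, was at 230, 197, 256 and 228 CPM, against 122, 134 and 114 CPM with collagen. It was 1.84-fold higher (0.88 ± 0.13, edgeR adjusted p = 0.00021), and its 4 libraries were also above the control libraries, at 147, 117, 142 and 191 CPM (0.61 ± 0.13, adjusted p = 0.038). NQO1, which reduces quinones by 2 electrons, was at 466, 410, 430 and 411 CPM, against 263, 260 and 376 CPM with collagen and 248, 215, 207 and 308 CPM in the control. The RUNXi libraries lay above all others, and NQO1 was 1.43-fold higher than with collagen (0.51 ± 0.13, adjusted p = 0.030) and 1.76-fold higher than in the control (0.81 ± 0.12, adjusted p = 0.00090). HMOX1, which opens heme to biliverdin, iron and carbon monoxide, was low, at 10.5, 7.80, 11.2 and 5.00 CPM with RUNXi and 3.59, 3.44 and 3.09 CPM with collagen (2.54-fold, 1.34 ± 0.38, adjusted p = 0.045). Against control the log2 fold change of HMOX1 was larger, 2.22 ± 0.63, but its adjusted p was 0.21. The control libraries of HMOX1 were at 2.90, 0, 1.31 and 2.89 CPM, and the count of 0 in replicate 2 allows up to 0.240 CPM.

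GCLM, SLC7A11 and SRXN1 did not pass the test with RUNXi. GCLM, the modifier subunit of the first enzyme of glutathione synthesis, was at 60.7, 61.1, 68.4 and 59.6 CPM, above the collagen libraries at 37.8, 41.6 and 54.7 CPM (0.48 ± 0.15, edgeR adjusted p = 0.063). One control library, at 62.3 CPM, lay within the RUNXi range. SLC7A11, the cystine carrier that supplies cysteine for glutathione, was at 86.2, 80.8, 82.6 and 64.6 CPM. These overlapped the collagen libraries at 84.0, 48.8 and 41.3 CPM, and 1 was above them all (0.43 ± 0.21, adjusted p = 0.24). SRXN1, which restores overoxidized peroxiredoxins, was at 205, 195, 228 and 238 CPM with RUNXi and 195, 206 and 268 CPM with collagen (-0.05 ± 0.12, adjusted p = 0.88).

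Leaving AKR1C1 aside, 4 of 9 genes rose with RUNXi against collagen and 0 fell, where 549 of 13548 genes tested were called in either direction (4.05%). Apart from all 3 AKR1C genes it was 3 of 7. The median log2 fold change of the 9 was 0.68, beside 0.01 over all genes tested. Against control 3 of 9 rose (AKR1C3, NQO1 and TXNRD1) and 0 fell, where 53 of 13213 genes were called (0.401%), and the median was 0.81 beside 0.00. The comparisons with collagen and with control share the RUNXi libraries. The count against collagen moved with single libraries: it was 2 (AKR1C2 and TXNRD1) without RUNXi replicate 3 or with collagen replicate 3 included, 2 (TXNRD1 and SLC7A11) without collagen replicate 1, 2 (AKR1C3 and TXNRD1) without RUNXi replicate 2, and 1 (TXNRD1) without collagen replicate 2 or RUNXi replicate 1. Against collagen TXNRD1 was called in each of the 11 fits that left out 1 library, AKR1C3 in 6, NQO1 in 5 and HMOX1 in 4. The edgeR adjusted p of HMOX1 was 0.26 with all 4 groups in one fit and 0.12 with collagen replicate 3 included. Against control TXNRD1 was called in 6 of 12 such fits, not in those without control replicate 1, 2 or 3 or RUNXi replicate 1, 3 or 4 (adjusted p 0.065 to 0.17), and its adjusted p was 0.50 without control replicates 2 and 3. Against control the count was 1 (NQO1) without control replicates 2 and 3, the least deep of that group, and 2 (AKR1C2 and NQO1) without RUNXi replicate 3.

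RUNXi replicate 3 was the highest library of its group for AKR1C1, AKR1C2, AKR1C3, AKR1B10, HMOX1, GCLM and TXNRD1, and it was the least deep of the group, at 15558341 counts. Replicate 4, at 26162434 counts, was the lowest for AKR1C2, AKR1C3, AKR1B10, HMOX1, GCLM and SLC7A11. The part of depth in this spread was not tested. Without replicate 3 the log2 fold changes against collagen were 1.45 ± 0.19 for AKR1C1, 0.98 ± 0.19 for AKR1C2 (edgeR adjusted p = 0.013) and 0.54 ± 0.18 for AKR1C3 (adjusted p = 0.11). AKR1B10 then stood at 0.89 ± 0.93, against 1.50 with it.

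With DDR1i 0 of the 2 AKR1C genes tested passed against collagen or control by edgeR in the main fits, which had no block for replicate number. With such a block AKR1C2 (edgeR adjusted p = 0.00015) and AKR1C3 (0.0040) passed against collagen, and AKR1C2 (0.0057) against control. Every DDR1i library of the 3 genes was below the 3 collagen libraries of the fit, a pattern whose share over all genes was not counted. Against collagen AKR1C2 and AKR1C3 were under 0.05 before adjustment in the main fit, as were 2442 of the 13548 genes tested. DESeq2 called AKR1C3 (adjusted p = 0.030), where it called 504 genes higher and 353 lower of the 17856 it fitted. AKR1C1 was at 29.8, 20.9, 26.4 and 19.0 CPM, each library below the 3 collagen libraries (1.62-fold lower, log2 -0.70 ± 0.19), but the highest was above collagen replicate 3 at 28.9 CPM. AKR1C2 was at 58.0, 48.3, 68.9 and 39.8 CPM, below all libraries of the collagen group and of the control, in which it was at 102, 104, 101 and 99.2 CPM. Its log2 fold change was -0.96 ± 0.32 against collagen (edgeR adjusted p = 0.15) and -0.91 ± 0.28 against control (adjusted p = 0.54). AKR1C3 was at 32.3, 30.2, 39.4 and 24.7 CPM, below the 3 collagen libraries but with 1 library among the controls (-0.60 ± 0.18, adjusted p = 0.065 against collagen). That library, at 39.4 CPM, was also above collagen replicate 3 at 37.7 CPM. AKR1B10 was at 1.70, 0.920, 0 and 0.315 CPM, within the range of the control libraries at 1.90, 0, 2.93 and 1.16 CPM.

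SLC7A11 fell with DDR1i against collagen. It was at 35.3, 40.1, 23.2 and 35.8 CPM, just below the lowest collagen library at 41.3 CPM (1.72-fold lower, -0.79 ± 0.21, edgeR adjusted p = 0.049). In the control SLC7A11 ranged from 26.0 to 94.6 CPM, and -0.92 ± 0.29 against control had an adjusted p of 0.49. The call rested on single libraries: with collagen replicate 3 included (46.9 CPM) the adjusted p was 0.37, without collagen replicate 1 the log2 fold change was -0.44 ± 0.19 (adjusted p = 0.21), and 3 of 11 fits that left out 1 library kept it, those without collagen replicate 2, collagen replicate 4 and RUNXi replicate 4. Leaving out each of the 4 DDR1i libraries or RUNXi replicates 1 to 3 gave adjusted p-values of 0.051 to 0.15.

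The other enzymes stayed near the collagen level with DDR1i. TXNRD1 was at 132, 147, 117 and 147 CPM (0.14 ± 0.12, edgeR adjusted p = 0.63), and GCLM was at 48.5, 46.9, 43.5 and 48.9 CPM (0.07 ± 0.15, adjusted p = 0.88). NQO1 was at 277, 228, 229 and 279 CPM (-0.25 ± 0.13, adjusted p = 0.32), and SRXN1 was at 208, 178, 187 and 182 CPM (-0.24 ± 0.12, adjusted p = 0.31). HMOX1 was at 2.84, 2.76, 3.29 and 4.92 CPM (0.03 ± 0.37, adjusted p = 0.98). None of these 5 differences was larger than the spread between libraries by the test. In all 1 of 9 genes fell and 0 rose against collagen, where 334 of 13548 genes were called (2.47%), and the median log2 fold change was -0.25 beside 0.00 over all genes. Against control edgeR called 0 of 9, where 28 of 13213 genes were called (0.212%). At an unadjusted p under 0.05 AKR1C2 and SLC7A11 passed, 2 of 9, where 678 of all genes did (5.13%), and DESeq2 called 0 of 9 and 66 of the 18457 genes it fitted (0.358%).

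**Figure D2:**
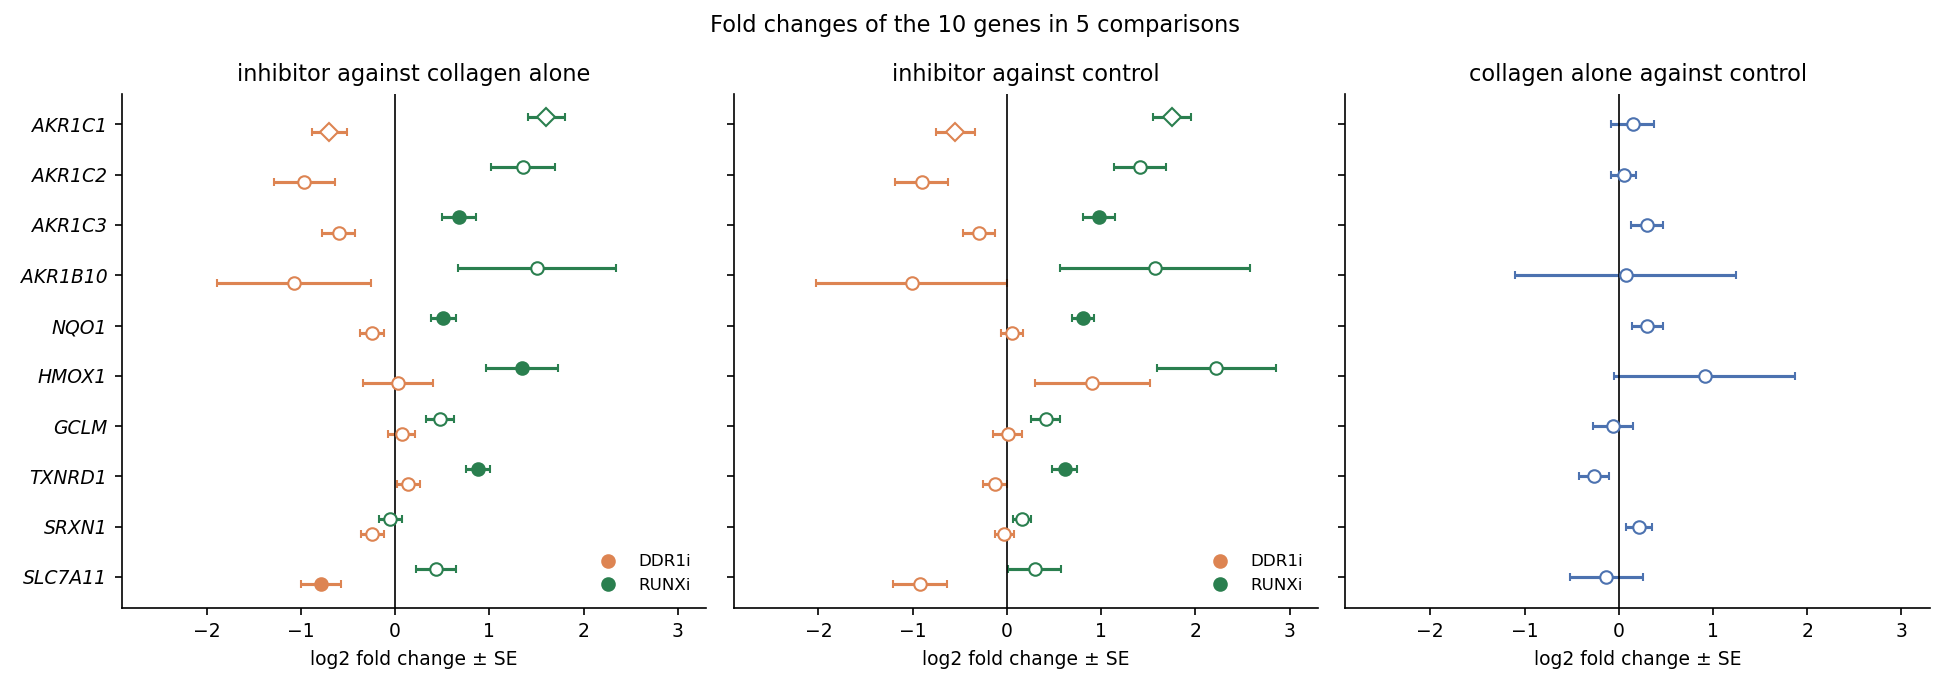
Log2 fold changes ± SE (horizontal axes) of the 10 genes for each inhibitor against collagen alone and against control, and for collagen against control, from edgeR fits. Filled circles passed an adjusted p of 0.05, open circles did not, and diamonds are AKR1C1, which was not tested against an inhibitor group because the list was chosen on it. Filled circles are to the right for RUNXi (AKR1C3, NQO1, HMOX1 and TXNRD1 against collagen) and to the left for DDR1i (SLC7A11).

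Set directly beside each other, the inhibitors differed in the same direction for the whole list, as a description since the list was chosen on this contrast. AKR1C1 was 4.93-fold lower with DDR1i than with RUNXi (log2 -2.30 ± 0.18), AKR1C2 4.99-fold (-2.32 ± 0.32) and AKR1C3 2.42-fold (-1.28 ± 0.17). SLC7A11 was 2.33-fold lower (-1.22 ± 0.20), NQO1 1.69-fold (-0.76 ± 0.12) and TXNRD1 1.67-fold (-0.74 ± 0.11). HMOX1 stood at -1.32 ± 0.35, AKR1B10 at -2.58 ± 0.79, GCLM at -0.41 ± 0.14 and SRXN1 at -0.19 ± 0.11. All DDR1i libraries were below all RUNXi libraries for 9 of the 10 genes, where the groups did not overlap for 4.52% of the 13548 genes, and SRXN1 was the exception. The 2 inhibitors were used at different doses, 2 μM and 5 μM, and neither was given at a further dose.

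AKR1C1, AKR1C2 and AKR1C3 lay apart from collagen on both sides, with every DDR1i library below and every RUNXi library above the 3 collagen libraries. AKR1B10, NQO1, HMOX1, GCLM and TXNRD1 had every RUNXi library above collagen and DDR1i libraries that overlapped it. SLC7A11 had the reverse, with every DDR1i library below collagen and RUNXi libraries that overlapped it. The division of these patterns by gene was read from the values and was not tested, and the share of all genes with each pattern was not counted.

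Because reads may move between AKR1C genes, their counts were also summed to 1 entry, a choice made after the data had been seen. The sum was 2.42-fold higher with RUNXi than with collagen (1.28 ± 0.24), 1.75-fold lower with DDR1i than with collagen (-0.81 ± 0.23) and 4.24-fold lower with DDR1i than with RUNXi (-2.08 ± 0.23). Against control it was 2.65-fold higher with RUNXi (1.41 ± 0.21) and 1.60-fold lower with DDR1i (-0.68 ± 0.21). Within the sum AKR1C3 took 13.8% to 18.3% of reads with RUNXi, 20.4% to 26.5% in the control and collagen libraries, and 26.9% to 30.4% with DDR1i. AKR1C1 took 21.9% to 33.6% with RUNXi and 14.6% to 25.0% in the control and collagen libraries, which overlap. So the share of AKR1C3 was lowest where the sum was highest, with no overlap between DDR1i, RUNXi and the rest.

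**Figure D3:**
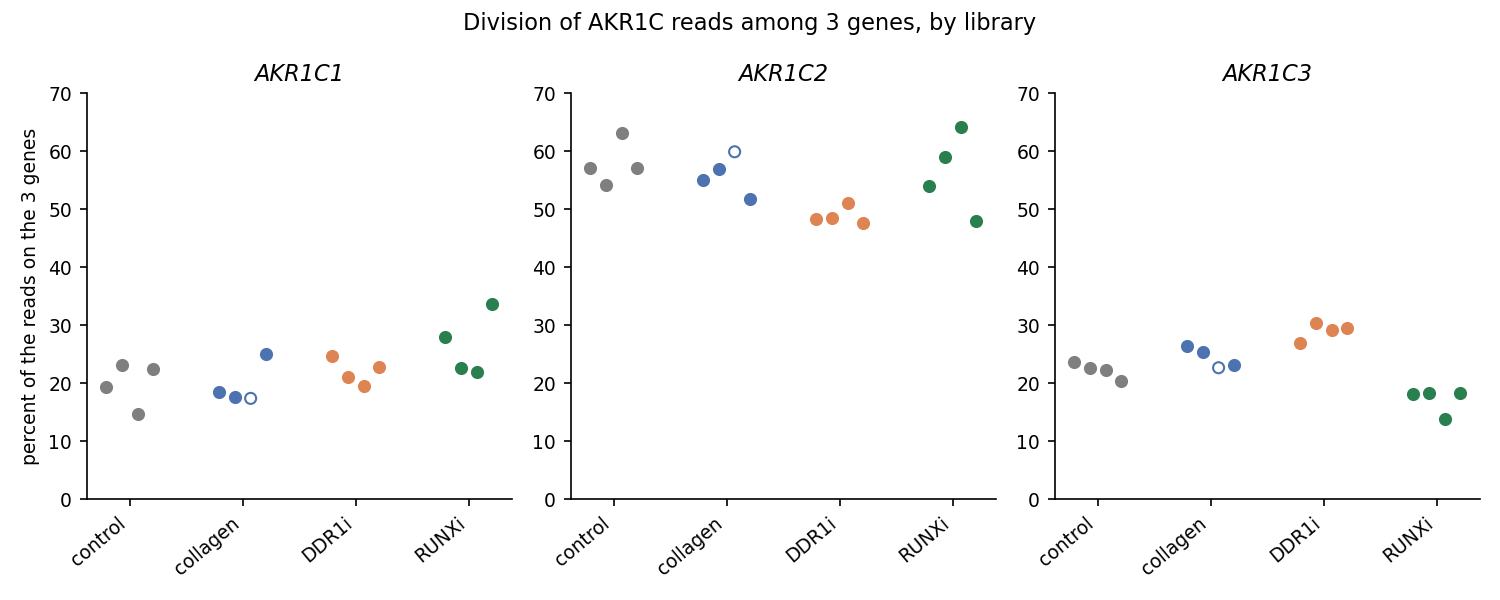
Percent of the reads counted on AKR1C1, AKR1C2 and AKR1C3 together (vertical axes, from 0 to 70%) that fell on each of the 3 genes, by library and group. The open point is collagen replicate 3. The AKR1C3 share lies at 26.9% to 30.4% with DDR1i and at 13.8% to 18.3% with RUNXi, on either side of the other libraries.

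Per kilobase of the annotated canonical transcript the 10 genes spanned a wide range with collagen alone. NQO1 was highest at 119 ± 26.2 CPM per kb (SD, n = 3) and SRXN1 next at 88.2 ± 15.5, a pair whose ranges of spread overlap. AKR1C3 at 40.4 ± 3.06, AKR1C2 at 32.5 ± 2.66 and TXNRD1 at 31.9 ± 2.55 followed, of which the last 2 did not differ beyond their spread. GCLM stood at 9.15 ± 1.82, SLC7A11 at 6.02 ± 2.36, AKR1C1 at 5.94 ± 1.12, HMOX1 at 2.17 ± 0.167 and AKR1B10 at 0.967 ± 0.141 CPM per kb. The transcript taken for AKR1C1 has 6543 bases, against 3215 for AKR1C2 and 1186 for AKR1C3, so that the place of AKR1C1 in this order depends on the transcript model.

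The other genes of the pathway were examined as a list of 52 genes, of which 49 were tested against collagen and 48 in the fit with the control libraries. GSTM3, AKR1C4 and SLC40A1, and GPX2 in the second, had too few reads to be tested. NFE2L2, which encodes NRF2, had log2 fold changes of -0.39 ± 0.13 with RUNXi (edgeR adjusted p = 0.075) and -0.22 ± 0.13 with DDR1i (adjusted p = 0.38) against collagen, and its repressor KEAP1 had 0.18 ± 0.13 (adjusted p = 0.46) and 0.01 ± 0.13 (adjusted p = 0.98). BACH1 had 0.44 ± 0.17 with RUNXi (adjusted p = 0.12) and 0.43 ± 0.17 with DDR1i (adjusted p = 0.16). Of 9 regulators 1 rose with RUNXi against collagen, the small MAF gene MAFK (0.65 ± 0.18, adjusted p = 0.045), with 3 at an unadjusted p under 0.05 and 2 by DESeq2. With DDR1i MAFK had 0.47 ± 0.18 (adjusted p = 0.17).

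Of the 49 pathway genes 7 rose and 1 fell with RUNXi against collagen, where 4.05% of all genes were called. At an unadjusted p under 0.05, 15 of the 49 and 21.1% of all genes passed, and DESeq2 called 10 of the 49 and 6.5% of the genes it fitted. In glutathione synthesis, use and export 3 of 12 rose and 1 fell: ABCC3, an exporter of glucuronide and glutathione conjugates, by 2.41-fold (edgeR adjusted p = 6.5e-05), GCLC, the catalytic partner of GCLM, by 1.70-fold (0.77 ± 0.15, adjusted p = 0.0094), and ABCC1, which exports glutathione conjugates, by 1.45-fold (adjusted p = 0.023). SLC3A2, the heavy chain that carries SLC7A11 to the membrane, was 1.50-fold lower (-0.58 ± 0.13, adjusted p = 0.015). FTL, the ferritin light chain, was 1.69-fold higher (0.76 ± 0.14, adjusted p = 0.0052), 1 of 5 genes of heme and iron. Ferritin genes have many near-identical pseudogenes, so that their counts are uncertain. CYP4F11, an omega-hydroxylase of fatty acids, was 2.84-fold higher (1.50 ± 0.32, adjusted p = 0.018). Of 9 genes of carbonyl, quinone and aldehyde metabolism edgeR called 0, with 1 at an unadjusted p under 0.05 and 1 by DESeq2 (EPHX1). Of 4 of thioredoxin and peroxiredoxin it called 0, with 1 at an unadjusted p under 0.05 and 0 by DESeq2. The median log2 fold change of the 49 was 0.12, less than that of the 9 members, beside 0.01 over all genes.

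ABCC1 was at 69.1 to 85.3 CPM in the 3 collagen libraries, below each control library at 102 to 120 CPM, and at 97.9 to 123 CPM with RUNXi. It was also the only pathway gene that passed with DDR1i against collagen (0.50 ± 0.13, edgeR adjusted p = 0.035), so that both calls of ABCC1 rest on the same 3 collagen libraries. The call was 1 of 49 pathway genes, where 2.47% of all genes were called. At an unadjusted p under 0.05, 17 of the 49 and 2442 of 13548 genes passed. DESeq2 called 2 of the 49, and 504 genes higher and 353 lower of the 17856 it fitted. By the fitted value 36 of the 49 were lower and 13 higher. Their median log2 fold change was -0.17, beside 0.00 over all genes. With collagen replicate 3 included neither call of ABCC1 held, and 5 pathway genes were called with RUNXi (ABCC3, CYP4F11, FTL, GCLC and SLC3A2) and 0 with DDR1i.

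Against control 5 of 48 pathway genes rose with RUNXi and 1 fell, where 0.401% of all genes were called. FTL was at 773 to 1199 CPM against 457 to 500 CPM, 1.96-fold higher (0.97 ± 0.11, edgeR adjusted p = 6e-05), and ABCC3 was 1.89-fold higher (0.92 ± 0.16, adjusted p = 0.0065). CYP4F11 was 2.90-fold higher (adjusted p = 0.011), TXN, the thioredoxin that TXNRD1 reduces, 1.40-fold (adjusted p = 0.020) and the aldose reductase gene AKR1B1 1.35-fold (adjusted p = 0.048). SLC3A2 was 1.37-fold lower (-0.46 ± 0.10, adjusted p = 0.044). The count of 6 was 2 (ABCC3 and FTL) without control replicates 2 and 3 or without RUNXi replicate 3, 3 (ABCC3, CYP4F11 and FTL) without control replicate 1, control replicate 2 or RUNXi replicate 1, and 12 with a replicate block. With DDR1i against control 0 of 48 passed by edgeR, 7 at an unadjusted p under 0.05 (5.13% of all genes) and 0 by DESeq2 (0.358%). With collagen against control 0 of 49 passed by edgeR, 6 at an unadjusted p under 0.05 (13.4% of all genes, a share near that of the list) and 1, ABCC1, by DESeq2 (2.3%).

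**Figure D4:**
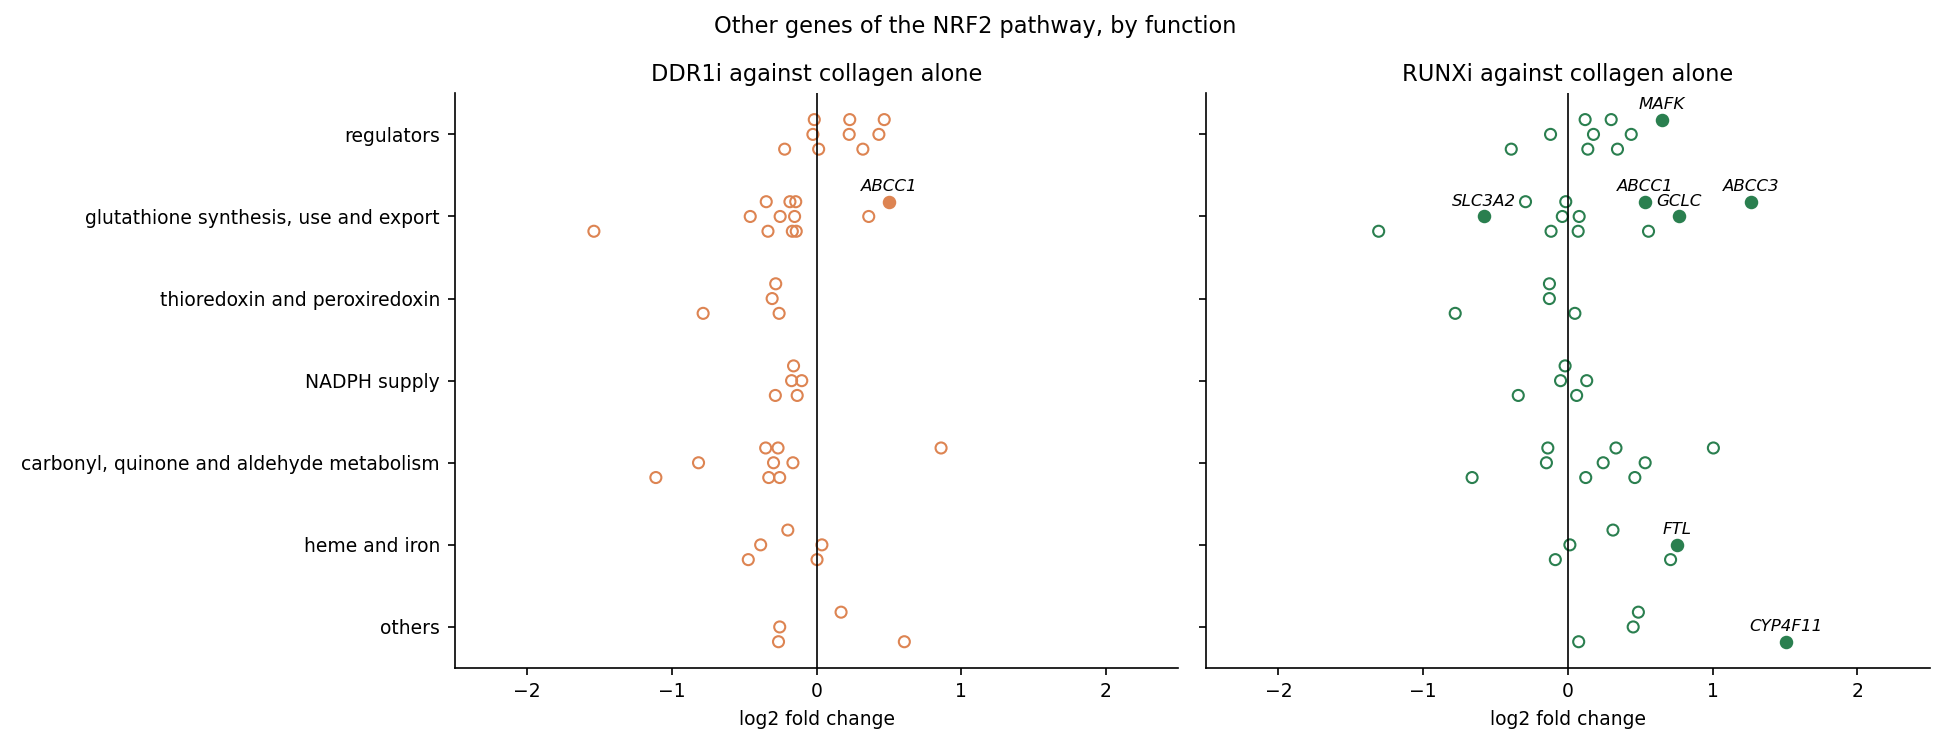
Log2 fold changes (horizontal axes) of the other NRF2 pathway genes against collagen alone, by function, for DDR1i (left) and RUNXi (right). Each circle is a gene (the vertical offset within a row has no meaning), and filled, named circles passed an adjusted p of 0.05 in edgeR: ABCC1 with DDR1i, and MAFK, ABCC1, GCLC, ABCC3, FTL and CYP4F11 higher and SLC3A2 lower with RUNXi.

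Set beside each other, DDR1i libraries were lower than RUNXi libraries by the fitted value in 40 of the 49 pathway genes, and without overlap in 16, where the groups did not overlap for 4.52% of all genes, again as a description. FTH1, the ferritin heavy chain, was among the 16, at 2410 to 3463 CPM with DDR1i and 4248 to 9385 CPM with RUNXi (-1.18 ± 0.18), with collagen between them at 3775 to 3944 CPM. For FTH1 against collagen the adjusted p was 0.051 with RUNXi and 0.20 with DDR1i in edgeR. No pathway gene had all DDR1i libraries above all RUNXi libraries.

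The members whose log2 CPM followed that of AKR1C1 most closely over 15 libraries were AKR1C3 (Pearson's r = 0.93) and AKR1C2 (0.92). They ranked 2 and 3 of 13731 genes, with AKR1C1 itself not ranked, behind a gene of the pathway list. NQO1 ranked 7 (0.86), TXNRD1 18 (0.77), GCLM 26 (0.74), SLC7A11 94 (0.65), SRXN1 350 (0.53), AKR1B10 362 (0.53) and HMOX1 1185 (0.38). Outside the members and the pathway list the 5 nearest were PID1 (0.88), KYNU (0.82), SEL1L3 (0.82), C5 (0.82) and SMOC1 (0.80). The points share their libraries and groups, 4 of the 15 are RUNXi libraries with high AKR1C1, and these values are a description.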

How the data were processed

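RNA-seq of MCF10A cells was measured in 16 libraries of 4 groups (TruSeq, 150-base paired reads), which were assigned from the labels. The authors aligned reads to GRCh37 with STAR and deposited raw counts per gene, without normalization. The counting tool, the annotation and the use of strand are not given in the sources used here. Doses and times were those the study states for stimulating cells with collagen. The table had 26475 genes, of which 21999 matched a GENCODE annotation lifted to GRCh37 (20676 by current and 1323 by older symbols).

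Counts were scaled by TMM and low genes removed by filterByExpr in edgeR 4.0.16 (R 4.3.3). A robust quasi-likelihood model was fitted to all genes that passed, and p-values adjusted by Benjamini-Hochberg were held to 0.05. Collagen against control used 7 libraries, inhibitors against collagen 11, and inhibitors against control 12. Collagen replicate 3, which the study excluded, was left out. CPM are counts scaled to a common library total after TMM, and log2 CPM used a prior count of 2. Named genes are the 10 members, pathway genes past the threshold (up to 4 per class and direction by smallest adjusted p) and the 5 genes most like AKR1C1 by Pearson's r. A pathway gene is counted in the lists but not reported here by name, nor drawn. FTH1, named beside the inhibitors, was chosen after its values were seen. Members and lists were chosen with earlier results of these data known. The script of the test was checked on simulated data.

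Total counts were 12184619 to 44332378 per library. Replicates differed by more than sampling noise (lowest chi-square per degree of freedom 18.7), so that the spread between libraries, more than depth, limits the precision. DESeq2 1.42.0 and limma 3.58.1 served alternatives. Genes without an adjusted p in DESeq2 stay among those counted, as not called. Of the pathway genes these were 12 with collagen against control, and 9 with DDR1i and 4 with RUNXi against collagen. Figures used Python 3.11.15, pandas 2.3.3 and matplotlib 3.10.9. Promoters came from RefSeq (GRCh38.p14).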

Additional observations from a re-analysis of the deposited data

Results flagged for a closer look

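In groups of 4 libraries the highest or the lowest value was compared with its neighbour by Dixon's ratio (at its 95% critical value) for the 10 genes and the total count, 44 groups of values in all. Chance flags about 1 in 20 of such groups, or 2.2 here, and 3 passed. AKR1B10 was at 9.23 CPM in RUNXi replicate 3, against 2.29 to 3.28 CPM in the other 3 RUNXi libraries (ratio 0.857). GCLM was at 68.4 CPM in the same library, against 59.6 to 61.1 CPM in the others (ratio 0.830). Collagen replicate 1 had 17570707 counts, against 26642600 to 27695778 in the other 3 collagen libraries (ratio 0.896).

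AKR1C1, AKR1C2 and AKR1C3 had all 4 DDR1i libraries below and all 4 RUNXi libraries above the 3 collagen libraries of the fit. DDR1i minus RUNXi was -2.30 for AKR1C1, -2.32 for AKR1C2 and -1.28 for AKR1C3 on the log2 scale. The difference was not tested, because the list was chosen on it. The 3 genes share much of their sequence and are not independent, and the share of all genes with this pattern was not counted. The fit left out collagen replicate 3, and the highest DDR1i library was above it for AKR1C1 (29.8 against 28.9 CPM) and for AKR1C3 (39.4 against 37.7 CPM).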

How the results depend on the processing

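The count of members called with collagen against control was 0 in all 18 alternatives. Members called with DDR1i against collagen (1) came to 2 with DESeq2, 3 without a filter, 0 with all 4 groups in one fit, 2 without robust fitting, 0 with collagen replicate 3 included, 2 at an adjusted p under 0.1, and 0 to 2 without 1 library. With RUNXi against collagen (4) they came to 2 with collagen replicate 3 included and 1 to 4 without 1 library. Against control DDR1i (0) had 1 without control replicates 2 and 3 and 0 to 1 without 1 library. RUNXi (3) had 5 with DESeq2, 1 without control replicates 2 and 3 and 2 to 3 without 1 library. SLC7A11 with RUNXi against control turned from 0.30 to -0.089 without control replicates 2 and 3, past the threshold in neither.

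Pathway genes called with collagen against control (0) came to 1 with DESeq2 or all 4 groups in one fit. With DDR1i against collagen (1) they came to 2 with DESeq2 or at least 10 counts in every library, 6 without a filter, 0 with the transcript length trend removed or collagen replicate 3 included, 3 at an adjusted p under 0.1, and 0 to 3 without 1 library. With RUNXi against collagen (8) they came to 5 with collagen replicate 3 included and 5 to 9 without 1 library. With DDR1i against control (0) there were 0 to 1 without 1 library. With RUNXi against control (6) there were 10 with DESeq2, 3 with all 4 groups in one fit or the length trend removed, 2 without control replicates 2 and 3, and 2 to 7 without 1 library. The causes were not tested.

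The correlation of deviations between libraries with the same replicate number was over 0.1 in 7 of 21 pairs (-0.09 to 0.28), among them all 6 pairs of replicate 4 (from 0.16). A library correlated best with its own number in 31 of 42 cases. Libraries of the same number may therefore be paired, at least in part, and the main fits leave this out. A replicate block gave 3 members (AKR1C2, adjusted p = 0.00015, AKR1C3, 0.0040, and SLC7A11, 0.038) and 4 pathway genes with DDR1i against collagen, 1 and 2 with DDR1i against control, and 12 pathway genes with RUNXi against control, and it moved the other counts of either list by less than 1.5 times.

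Over all genes tested DESeq2 called 414, 857, 1160, 66 and 112 genes (collagen against control, DDR1i and RUNXi against collagen, DDR1i and RUNXi against control), where edgeR called 0, 334, 549, 28 and 53. With collagen replicate 3 included 9 genes were called with DDR1i and 60 with RUNXi against collagen. Without a filter 284, 755, 1046 and 81 genes were called (all but DDR1i against control), and with all 4 groups in one fit 313 with collagen, and 17 and 35 with the inhibitors, against control. The replicate block gave 537 with DDR1i against collagen, and 116 and 162 against control. Removing the length trend left 159 and 203 against collagen. Leaving out 1 library gave 60 to 662, 123 to 715, 8 to 47 and 26 to 78 genes in the 4 inhibitor comparisons, and control replicates 2 and 3 left out gave 12 and 21. AKR1B10 and HMOX1 both had 0 counts in control replicate 2, the least deep library, in which 12074 genes were detected against 17133 in control replicate 1. AKR1B10 also had 0 counts in DDR1i replicate 3, at a total of 22432500, but 21 in DDR1i replicate 2, at 22073764. The cause of these zeros was not tested.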
